A study of Rattus norvegicus with 4 samples.

Results

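The genes described here encode the proteins of the cytosolic ribosome and the factors that run translation on it, measured in the livers of 4 obese rats. They were taken from the array's probe annotation by symbol: Rpl or Rps followed by a digit, Rplp, Rpsa, and Eif or Eef followed by a digit. The ribosomal S6 kinases (Rps6k) and the interferon-induced kinase Eif2ak2 were left out. This gave 101 genes on 130 of the 33849 gene probes of the array. Of these, 85 genes on 100 probes were kept, meaning that in at least 1 of the groups neither array flagged the probe as near background or masked. A further 16 probes carry such a symbol jointly with another gene and were not used. The 85 genes fall into 25 of the large subunit, 14 of the small subunit, 31 initiation factors, 6 elongation factors and 9 regulators (kinases, binding proteins and methyltransferases of the factors). Each gene is given by its brightest kept probe.

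The rats were male Otsuka Long-Evans Tokushima Fatty (OLETF) animals, an inbred strain used as a model of obesity with diabetes. In the thiamine group, 2 rats had drinking water with 0.2% thiamine, or 2 g per L, from an age of 4 weeks on, for 51 weeks in all. The 2 rats of the untreated group had plain water (0%). Food was standard chow for both groups, and every liver was taken at 55 weeks of age after a fast of 16 h. Each liver was put on its own 1-colour CodeLink array without pooling, out of 8 rats per group in the study. All 4 rats carry the same strain background, so no lean strain enters the comparison. Of 8 hepatocyte genes of the marker list 7 were measured (Alb, Ttr, Apoa1, Serpina1, Tf, Cps1 and Fgb) on these arrays. The spots of Alb, Ttr, Serpina1 and Tf were saturated on all 4 arrays, so they show that the tissue is liver and not how much hepatocyte RNA each sample held.

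As background, a ribosome is built from a small subunit, which reads the mRNA, and a large subunit, which forms the peptide bond. Initiation factors bring the first tRNA and the small subunit to the mRNA. Elongation factors then deliver further tRNAs and move the ribosome along. Ribosomal protein mRNAs in mammals typically begin with a C followed by an unbroken run of pyrimidines, the 5' terminal oligopyrimidine (TOP) start, through which nutrient signals over the kinase mTORC1 set how well they are translated. Control of this kind acts on translation and need not change the mRNA level, which is the quantity an array measures.

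The start sites are shown because most of the matched ribosomal protein genes hold a pyrimidine run there, which a smaller share of all RefSeq promoters does. RefSeq start windows on the rat build GRCr8 matched 72 of the 85 measured genes. Each sequence below runs 5' to 3' over 30 bases, from 15 bases before the start to the 15 bases that begin with it. Capitals mark an unbroken run of at least 5 C or T bases on the sense strand that reaches into the 5 bases on either side of the start. The following ribosomal protein and elongation factor genes hold such a run.
Rplp0, chr12:46718376-46718405, minus strand: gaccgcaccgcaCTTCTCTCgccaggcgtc
Rplp1, chr8:71290858-71290887, minus strand: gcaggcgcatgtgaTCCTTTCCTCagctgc
Rpl9, chr14:43247575-43247604, plus strand: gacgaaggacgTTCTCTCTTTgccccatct
Rpl23, chr10:83272170-83272199, minus strand: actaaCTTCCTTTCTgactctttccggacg
Rpl29, chr8:115947628-115947657, plus strand: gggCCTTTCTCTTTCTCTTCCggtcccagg
Rpl39, chrX:121195882-121195911, minus strand: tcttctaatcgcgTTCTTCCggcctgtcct
Rps3a, chr2:173827028-173827057, minus strand: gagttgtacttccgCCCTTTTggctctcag
Rps15, chr7:10068101-10068130, minus strand: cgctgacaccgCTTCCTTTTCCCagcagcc
Rps18, chr20:4933730-4933759, plus strand: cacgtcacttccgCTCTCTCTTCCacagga
Rps24, chr16:96502-96531, plus strand: tgagcggTCCTCTTTTCCTCCTTTacagct
Eef1a1, chr8:88225055-88225084, minus strand: tcgccttggacgTTCTTTTTCgcaacgggt
Eef1b2, chr9:72074076-72074105, plus strand: tttccggccggtcccggCCCTTTTTCTCCC
The next genes, whose values are described further on, hold no run that reaches into the 5 bases on either side of the start that RefSeq lists first.
Rps16, chr1:92770643-92770672, plus strand: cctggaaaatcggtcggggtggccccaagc
Rps6, chr5:106420526-106420555, minus strand: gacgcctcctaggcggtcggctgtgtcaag
Eif3b, chr12:19334754-19334783, minus strand: cggaagcagggcggccgagccgggtgagga
Eif5, chr6:136410318-136410347, plus strand: cccggggccgagggtagcttgagcgcggcg
Eif4a2, chr11:91275309-91275338, minus strand: gtcttttcagtcgggcgctgagtgggtttt
Eif4ebp2, chr20:29942908-29942937, minus strand: gcttccggtagtcatcgttgccgctgctgc
Such a run was found in 22 of 32 matched ribosomal protein genes (68.8%) and in 11 of 32 matched initiation and elongation factor genes (34.4%), against 29.1% of 27457 RefSeq promoters of the same length. By class it was in 15 of 20 large subunit genes, 7 of 12 small subunit genes, 8 of 27 initiation factors, 3 of 5 elongation factors and 4 of 8 regulators. A run is a match of letters near a listed start, and its absence says only that no such run reaches the bases next to that start. Rps6, for one, has a pyrimidine run further upstream in the printed window, which is not counted.

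The comparison asks whether the mRNAs of the translation machinery differ in the liver after 51 weeks of thiamine intake. In these arrays they differed little. No member passed the test (limma, Benjamini-Hochberg adjustment over all 18664 kept probes, threshold 0.05), and of all kept probes 0% passed it. At an unadjusted p under 0.05 (limma) there were 0 of the 85 genes, or 1 of their 100 probes, against 6.75% of all kept probes (3.81% higher and 2.94% lower). Differences ran from -0.34 for Eef1akmt1 to 0.48 for Eif5 (thiamine less untreated, log2 intensity, 2 rats per group). The median size of a difference was 0.12 over the 85 genes and 0.15 over all kept probes. The 95% interval of the difference lay within 2-fold in either direction for all 85 genes, against 95.3% of all kept probes. It lay within 1.5-fold for 51 of the 85 genes (60%), against 51.1% of all kept probes. With 2 rats per group no exact permutation test of a single value can give a two-sided p below 0.333.

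The medians of ribosomal proteins and of translation factors lay on opposite sides of zero, while each set had genes on both sides. Of 39 ribosomal protein genes 13 were higher and 26 lower in the thiamine livers, and their median difference was -0.041. Of 37 initiation and elongation factors 24 were higher and 13 lower, and the median was 0.092. Over all kept probes 50.9% were higher and 49.1% lower, and the median was 0.0054. The groups did not overlap, meaning that both rats of 1 group lay above both of the other, for 32 of the 85 members, against 36.2% of all kept probes. This held for 11 ribosomal protein genes, each lower with thiamine, against 18.3% of all kept probes that were lower in this way and 17.8% that were higher. For the factors 12 were higher and 3 lower in this way. The directions of both sets are counts of genes, none of which passed the test.

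**Figure D1:**
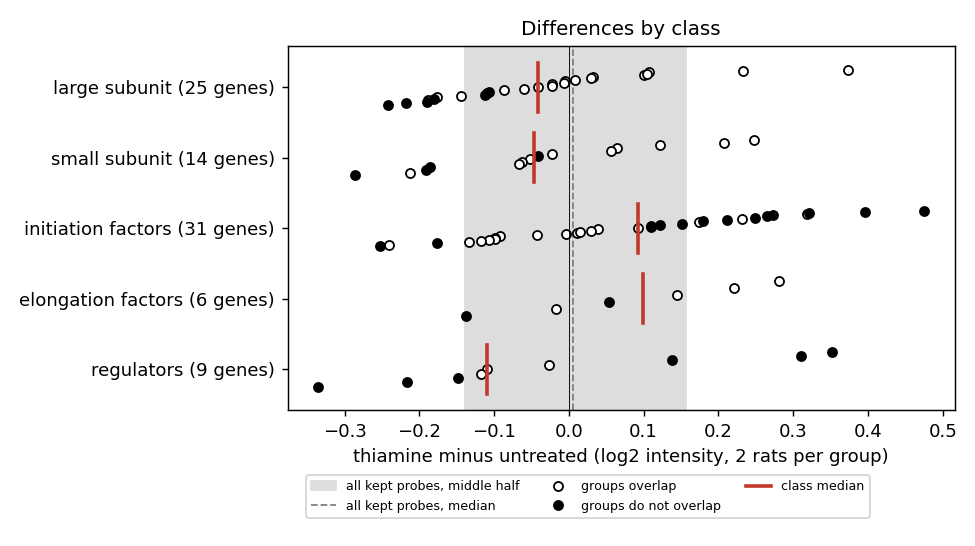
Each point is 1 gene: its difference between 2 thiamine and 2 untreated rats (log2 intensity, horizontal axis) in the 5 classes, filled where the groups do not overlap, with the class median in red. The grey band is the middle of the distribution over all kept probes (25th to 75th percentile). The medians of the large and small subunit (-0.041 and -0.046) lie left of zero, and those of initiation and elongation factors (0.092 and 0.10) right of it, all inside the band.

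The distance between the sets was seen most in untreated rat 2. This rat had the highest value of the 4 for 25 of 39 ribosomal protein genes (64.1%) and for 3 of 37 factors, against 24.2% of all kept probes. After each gene was centred on its mean over the 4 arrays, the median of the factors less that of the ribosomal proteins was 0.031 and 0.048 in thiamine rats 1 and 2, 0.043 in untreated rat 1 and -0.16 in untreated rat 2. The groups overlap in this measure, as untreated rat 1 lies between the thiamine rats. Taken from the differences between groups, the distance was 0.13 with all rats and 0.079 without untreated rat 2. Without untreated rat 1 it was 0.19.

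**Figure D2:**
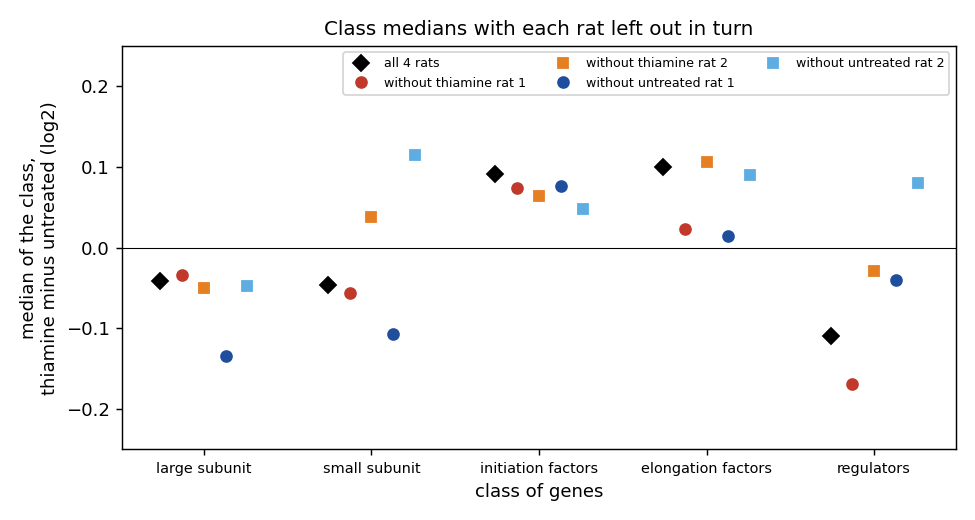
Median difference of each class (log2, vertical axis) with all 4 rats (diamonds) and with each rat left out in turn (other symbols). The small subunit moves from -0.11 without untreated rat 1 to 0.12 without untreated rat 2, whereas the initiation factors stay between 0.048 and 0.092.

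In the large subunit 8 of 25 genes were higher and 17 lower (median -0.041). The 7 genes whose groups did not overlap (28%) were all lower. Over all kept probes 36.2% had no overlap, and 18.3% were lower in this way. Rpl39, one of the smallest ribosomal proteins, lies in the tunnel through which the new chain leaves. It was at 12.68 and 12.69 in thiamine rats 1 and 2 and at 12.86 and 12.94 in untreated rats 1 and 2 (normalized log2 intensity). The rats of each group were close together and the groups apart, by -0.22 ± 0.18 (moderated SE, n = 2 per group; limma, adjusted p = 0.88). Every SE given here is limma's moderated one, which borrows from the variance of the whole array. Rpl35 was at 7.69 and 7.51 with thiamine and at 7.74 and 7.95 without, a difference of -0.24 ± 0.19. Its untreated rat 1 was only just above thiamine rat 1. Rpl23, which with Rpl11 is known to bind Mdm2 when ribosome assembly is disturbed, was at 13.29 and 13.60 with thiamine and at 13.62 and 13.64 without. Thiamine rat 1 stood apart from the other three, and the difference was -0.19 ± 0.19. Rpl29, Rpl6 and Rpl9 were each at -0.11 ± 0.18, also with no overlap. The probe annotated to Rpl17-ps16, by its symbol a pseudogene of Rpl17, was at -0.18 ± 0.18, and whether it binds the mRNA of the parent gene was not tested.

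The acidic stalk of the large subunit, on which elongation factors dock, is formed by Rplp0, Rplp1 and Rplp2. Rplp0 was at 12.89 and 12.77 with thiamine and at 12.84 and 13.20 without, so that untreated rat 1 lay between the thiamine rats. Its difference was -0.19 ± 0.19. Rplp1 was measured by 2 probes, at -0.14 ± 0.19 and -0.26 ± 0.19, and on the brighter one the groups overlapped (13.70 and 13.51 against 13.61 and 13.88). Rplp2 had 1 probe, which was near background on all 4 arrays.

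Some of the 8 higher genes of the large subunit had a wide gap between the untreated rats. Rpl4 was at 12.36 and 12.23 with thiamine and at 11.86 and 12.52 without, and Rpl11 at 9.71 and 9.53 against 9.13 and 9.90. Untreated rat 1 was the lowest and untreated rat 2 the highest of the 4 for both genes. Their differences of 0.10 ± 0.23 and 0.11 ± 0.24 were smaller than the gap within the untreated group. Without untreated rat 1 they were -0.23 and -0.28, and without untreated rat 2 they were 0.44 and 0.49. Rpl10, a late-joining protein at the catalytic center, was at 0.10 ± 0.19. The paralogs Rpl37l1 (0.37 ± 0.26) and Rpl36al1 (0.23 ± 0.23) were the highest of the class, but both were near background in untreated rat 2 alone. With flagged spots set to missing they were at -0.058 and -0.12. Whether these probes also bind the mRNAs of their parent genes was not tested.

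**Figure D3:**
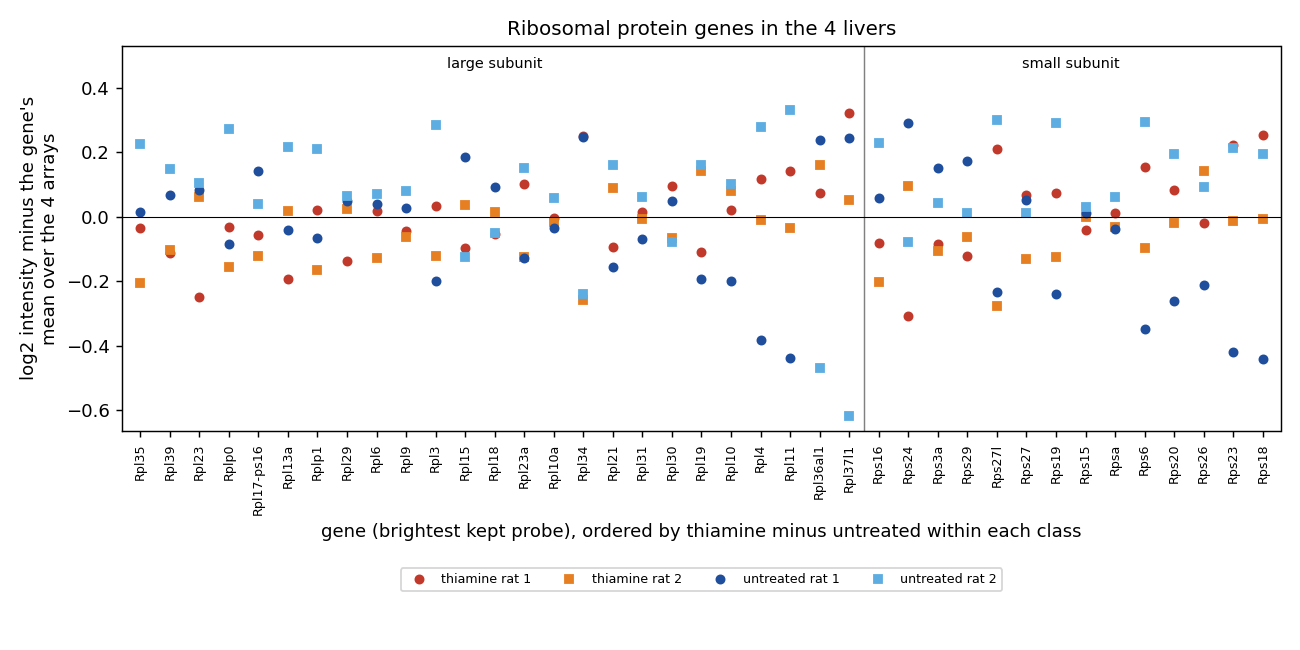
Values of 39 ribosomal protein genes in the 4 livers, each as log2 intensity less the gene's own mean (vertical axis), with genes ordered by difference within the large and small subunit. Untreated rat 2 (light squares) is the highest of the 4 for 25 genes and untreated rat 1 (dark circles) the lowest for 16, among them Rpl4, Rpl11, Rps6, Rps18 and Rps23.

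In the small subunit 5 of 14 genes were higher and 9 lower (median -0.046). Here the untreated rats disagreed most: their gap reached 0.5 (log2) in 5 of 14 genes, against 14.4% of all kept probes. The gap between the thiamine rats did so in 0 of 14 genes, against 1070 of the 18664 kept probes. Without untreated rat 1, 0 of the 14 genes were higher and the median was -0.11. Without untreated rat 2, 8 of 14 were higher and the median was 0.12, so the direction of this class depended on which untreated rat was used. Without thiamine rat 2 the median was 0.038.

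Rps6, the substrate of the S6 kinases, was at 13.45 and 13.20 with thiamine and at 12.95 and 13.59 without. Both thiamine rats lay between the untreated ones, and the difference was 0.057 ± 0.23. Rps18 followed the same order in the untreated rats, at 12.89 and 13.52, with 13.58 and 13.32 in the thiamine rats and a difference of 0.25 ± 0.23. It was at -0.070 without untreated rat 1. Rps23, a decoding-center protein, was at 8.45 and 8.21 against 7.80 and 8.44, a difference of 0.21 ± 0.23 that was -0.11 without untreated rat 1. Rps26 and Rps20 were at 0.12 ± 0.19 and 0.065 ± 0.20.

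The genes that were lower with no overlap in the small subunit were Rps16, Rps3a, Rps29 and, by a small margin, Rps15. Rps16 was at 8.13 and 8.01 with thiamine and at 8.27 and 8.44 without, a difference of -0.29 ± 0.18 (limma, adjusted p = 0.84). Rps3a was at 13.72 and 13.70 against 13.95 and 13.85 (-0.19 ± 0.18). Rps29, at 14.34 and 14.40 against 14.63 and 14.47, differed by -0.19 ± 0.18, and its spot on the array of untreated rat 1 was flagged as contaminated. In these genes untreated rat 1 was above both thiamine rats, whereas it was the lowest of the 4 in Rps6 and Rps18. Rps24 was at -0.21 ± 0.21 and Rps27 at -0.063 ± 0.18, both with overlapping groups. The Rps24 spot of untreated rat 1 was flagged as contaminated, and without that rat the difference was -0.027. Rpsa, also known as the laminin receptor, had probes at -0.022 ± 0.18 and 0.15 ± 0.27.

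Initiation factors were higher in 20 of 31 genes and lower in 11 (median 0.092). It stayed between 0.048 and 0.076 with any 1 of the rats left out. Of the 13 genes without overlap (41.9%), 11 were higher and 2 lower (35.5% and 6.45%). Over all kept probes 36.2% had no overlap, 17.8% higher and 18.3% lower. The members closest to the threshold were Eif4b and Eif5. Eif4b, which helps the helicase eIF4A unwind the start of an mRNA, was at 12.47 and 12.41 with thiamine and at 11.93 and 12.16 without. Both thiamine rats were above both untreated rats, by 0.40 ± 0.18 (95% interval -0.0090 to 0.80; limma, adjusted p = 0.75). A dimmer probe of the gene was at 0.23 ± 0.19, with no overlap either. Eif5, which triggers GTP hydrolysis by eIF2 at the start codon, was at 12.85 and 12.53 with thiamine and at 11.95 and 12.48 without. Untreated rat 1 was well below the rest, and untreated rat 2 was just under thiamine rat 2. The difference was 0.48 ± 0.22 (95% interval -0.011 to 0.96; limma, adjusted p = 0.75).

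The subunits of eIF2, the factor that carries the initiator tRNA, were higher in 3 of 3 genes, with a median of 0.15. Eif2s1, the subunit that stress kinases phosphorylate, was at 11.56 and 11.32 against 11.11 and 11.25 (0.26 ± 0.19). Eif2s2 differed by 0.15 ± 0.18, also without overlap, and Eif2s3 by 0.11 ± 0.19 with overlap. In eIF2B, which recharges eIF2, the 4 measured genes lay between -0.0042 and 0.12. The scaffold eIF3 had 4 of 7 genes higher and 3 lower. Eif3b was at 10.92 and 10.69 against 10.47 and 10.50, higher by 0.32 ± 0.18, and Eif3a was at 12.02 and 11.94 against 12.38 and 12.08, lower by -0.25 ± 0.19. Both are core subunits of the same complex, and both pairs of groups were separate. Eif3d was at -0.13 ± 0.18.

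Within the eIF4 group, which binds the mRNA cap, 5 of 9 genes were higher and 4 lower. The helicases Eif4a1 and Eif4a2 were at 0.23 ± 0.20 and 0.27 ± 0.19. Eif4a2 was at 10.03 and 10.36 with thiamine against 9.91 and 9.94, with no overlap. The cap-binding protein Eif4e was at 10.19 and 10.39 against 10.32 and 10.23, a difference of 0.015 ± 0.18. The scaffold Eif4g1 was at -0.11 ± 0.18, while Eif4g2, which lacks the part that binds Eif4e, was at 0.32 ± 0.21. For Eif4g2, untreated rat 1 (10.69) was low and untreated rat 2 (11.23) level with thiamine rat 2 (11.22). The cap-binding relatives Eif4e2 and Eif4e3 were at -0.24 ± 0.22 and -0.099 ± 0.19, and the helper Eif4h at -0.12 ± 0.20. The Eif4e2 spot of thiamine rat 1 was flagged as contaminated, and without that rat the difference was -0.53. Eif1ax, which scans for the start codon, was at -0.18 ± 0.18 on its brightest probe and 0.093 ± 0.20 on the other.

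**Figure D4:**
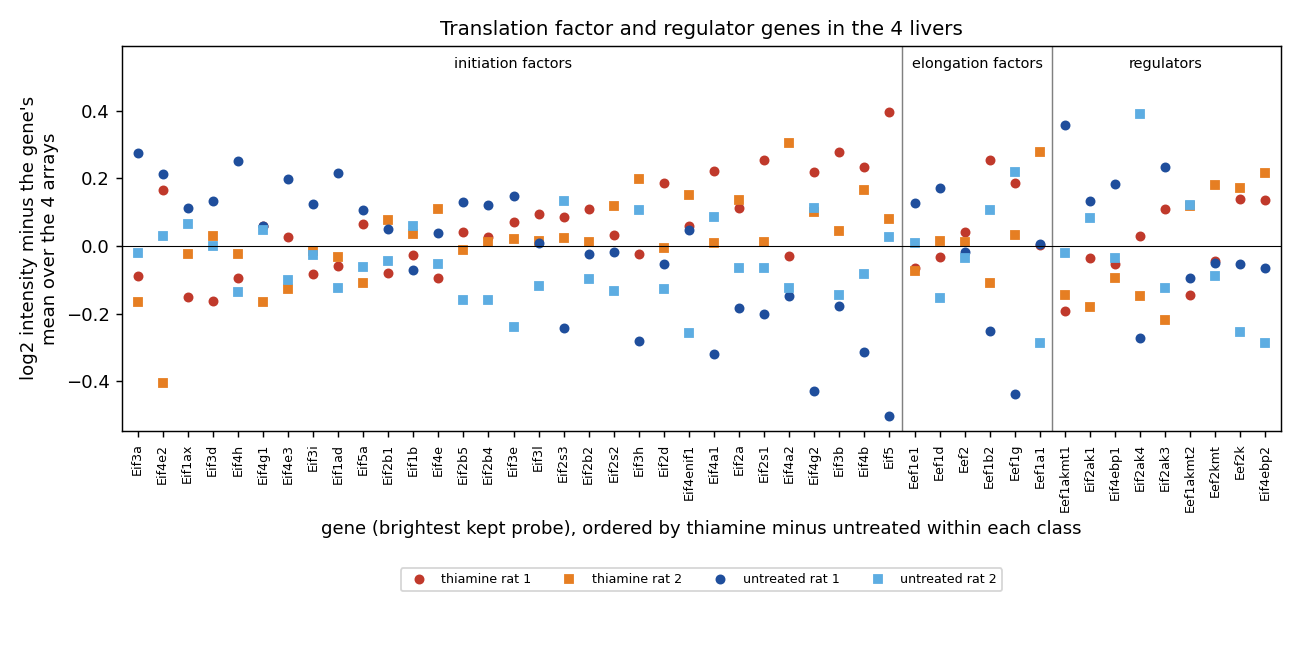
Values of 31 initiation factors, 6 elongation factors and 9 regulators in the 4 livers, as log2 intensity less the gene's own mean (vertical axis), ordered by difference within each class. At the right of the initiation factors, Eif4b and Eif5 have both thiamine rats (red and orange) above both untreated rats (blue), and Eif5 shows the low value of untreated rat 1.

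Among the elongation factors 4 of 6 genes were higher and 2 lower. Eef1a1, which delivers the charged tRNA, was at 12.91 and 13.18 with thiamine and at 12.91 and 12.61 without, a difference of 0.28 ± 0.20 with thiamine rat 1 level with untreated rat 1. Its dimmer probe gave 0.29 ± 0.21. The exchange factors that recharge it were at 0.14 ± 0.21 for Eef1b2, 0.22 ± 0.23 for Eef1g and -0.017 ± 0.19 for Eef1d. Eef1g was low in untreated rat 1 (8.06) against 8.69, 8.53 and 8.72 in the other three. Eef2, the translocase, was the tightest gene of the class, at 10.10 and 10.07 against 10.04 and 10.03 (0.054 ± 0.18). Eef1e1, a component of the tRNA synthetase complex, was at -0.14 ± 0.18. The class median was 0.10, which dropped to 0.024 when thiamine rat 1 was left out and to 0.015 when untreated rat 1 was.

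Regulators of the factors lay in both directions, 3 of 9 higher and 6 lower. No overlap was seen in 6 of the 9 (66.7%), against 36.2% of all kept probes. Eif4ebp2, a repressor that holds Eif4e away from Eif4g1, was at 11.90 and 11.97 with thiamine and at 11.69 and 11.47 without. The groups were separate, by 0.35 ± 0.18 (limma, adjusted p = 0.80). Its relative Eif4ebp1 was at 10.92 and 10.88 against 11.16 and 10.94, a difference of -0.15 ± 0.18. Of the kinases that phosphorylate eIF2, Eif2ak1 was at -0.22 ± 0.18, Eif2ak3 at -0.11 ± 0.20 and Eif2ak4 at -0.12 ± 0.23, the last with untreated rats at 9.12 and 9.78. A second, dim probe of Eif2ak3 (the kinase PERK of the endoplasmic reticulum) was the member probe with an unadjusted p under 0.05. It was near background in both thiamine livers and at least 1.42-fold higher in the untreated livers (measured means 6.83 and 7.59; limma, adjusted p = 0.34). This probe was kept only through the group in which it was high, and the bright probe of the same gene, at 11.03 and 10.70 against 11.15 and 10.80, had overlapping groups.

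Eef2k, the kinase that halts elongation by phosphorylating Eef2, had 2 probes of opposite sign. The brighter was at 0.31 ± 0.18 with no overlap, and the dimmer at -0.55 ± 0.33. On the dimmer, the spot of untreated rat 1 (8.81) was flagged as contaminated. The other rats were at 7.84 and 7.46 with thiamine and at 7.58 in untreated rat 2, so the negative sign leans on that spot. The methyltransferases Eef2kmt, Eef1akmt1 and Eef1akmt2 were at 0.14 ± 0.18, -0.34 ± 0.19 and -0.027 ± 0.19. Eef1akmt1 was at 8.33 and 8.38 with thiamine and at 8.88 and 8.50 without. The class median of -0.11 turned to 0.081 when untreated rat 2 was left out.

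Of the 15 members with 2 kept probes, 7 had probes of both signs: Eef2k, Eif1ax, Eif2ak1, Eif2b5, Rpl21, Rpl6 and Rpsa. The dimmer Eef2k probe had a contaminated spot in untreated rat 1. The dimmer Eif2ak1 probe had contaminated spots in thiamine rat 1 and untreated rat 1, the latter also near background. Both differences include these spots. The gap between probes of 1 gene was largest for Eef2k (0.86), Eif2ak3 (0.65) and Eif2ak1 (0.42). It was smallest for Rps15 (0.0064) and Eef1a1 (0.0089). Outside the flag limit were 16 members, of which Eef1a2, Eif4g3, Eif5a2, Rpl14, Rpl24, Rpl39l1, Rpl3l, Rpl8, Rplp2, Rps13, Rps3, Rps4x and Rps4y2 were near background on all 4 arrays. Eif2b3, Rpl41 and 1 of 2 Rpl28 probes were above it on 1 array each. A probe near background does not show that the mRNA is absent, and brightness is not compared between probes. Just inside the limit, Rpl13a was near background in thiamine rat 1 alone, at 7.25, with 7.46, 7.40 and 7.66 in the other rats. Just outside, Eif2b3 was at 7.23, 7.29, 7.30 and 7.09 in thiamine rats 1 and 2 and untreated rats 1 and 2. In all, 7 kept probes were near background on some array, and all 7 were kept through 1 group only.

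Set beside the pyrimidine runs, the ribosomal proteins had a median of -0.075 in 22 genes with a run and -0.031 in 10 without. Among initiation and elongation factors it was -0.092 in 11 genes with a run, 5 of them higher, and 0.12 in 21 without, 16 of them higher. These are descriptions with no test.

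None of the measured genes in the related lists passed the test (limma). In a list of ribosome biogenesis factors 28 of 58 measured genes were higher and 30 lower, and the median was -0.0089, while 0 passed the test. At an unadjusted p under 0.05 (limma) there were 0 as well, against 6.75% of all kept probes. Ncl, the nucleolar protein nucleolin, was at 12.92 and 12.83 with thiamine and at 12.47 and 12.52 without (0.38 ± 0.18), and Rpf1 was at 0.34 ± 0.21. Polr1e was at 8.29 and 8.09 with thiamine and at 8.08 and 7.41 without, and the spot of untreated rat 2 was both near background and contaminated. Its probe was kept only through the thiamine group, and with contaminated spots missing the difference was 0.11. The median ran from -0.13 with untreated rat 2 left out to 0.11 with untreated rat 1 left out. Of 7 measured genes that share the TOP start or sit on the ribosome 6 were higher, with a median of 0.096. Hnrnpa1 was at 0.32 ± 0.18, Btf3 at 0.14 ± 0.18 and Rack1, a protein of the small subunit, at -0.14 ± 0.19. A list of release, recycling and poly(A) factors, which also held genes of other functions such as Dnajc2, had 9 of 15 higher and 6 lower. In it Dnajc2 was at -0.38 ± 0.22, Pelo at 0.21 ± 0.18 and Ltn1 at 0.20 ± 0.19.

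The list of cytosolic aminoacyl-tRNA synthetases, which charge tRNAs with amino acids, also held Aimp1 (-0.073 ± 0.18) and Aimp2 (0.32 ± 0.18), which are not synthetases. In this list 3 of 18 measured genes were higher and 15 lower (median -0.15). None passed the test (limma), and 1 was lower at an unadjusted p under 0.05 (5.56%, against 2.94% of all kept probes). This was Cars1, at 9.37 and 9.09 with thiamine and at 9.87 and 9.93 without (-0.67 ± 0.19, adjusted p = 0.36). Eprs1 was at -0.38 ± 0.18, with thiamine rats at 12.40 and 12.46 and untreated rats at 12.81 and 12.81. Farsa was higher by 0.63 ± 0.29, with untreated rat 1 low at 9.01 on a contaminated spot. The list's median lay between -0.19 and -0.047 with each rat left out. Of 27 measured genes of mTORC1 and S6 kinase control 12 were higher and 15 lower (median -0.048). Rraga was at 0.39 ± 0.18, the eIF4E kinase Mknk1 at 0.40 ± 0.18 and the mTORC1 inhibitor Tsc2 at -0.34 ± 0.18. Mitochondrial ribosomal proteins, given for scale, had 27 of 59 genes higher and a median of -0.045. Without overlap, 22 of the 59 were lower (37.3%) and 4 higher (6.78%). The share lower in this way was 28.2% of the cytosolic ribosomal protein genes and 18.3% of all kept probes, so this lean was not particular to the cytosolic set.

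No marker of another liver cell type passed the test (limma), but most measured ones were higher with thiamine. Of 10 measured Kupffer cell and macrophage markers 9 were higher with thiamine (median 0.62), with summed linear intensities of 32674 and 23821 in thiamine rats 1 and 2 and 23951 and 16522 in untreated rats 1 and 2. At an unadjusted p under 0.05 (limma) there were 6 of the 10 (60%), against 6.75% of all kept probes. The sums of the groups overlapped. Of 6 endothelial markers 6 were higher (median 0.35), with sums of 6013 and 5348 against 4262 and 4082. Of 4 lymphocyte markers 4 were higher (median 0.25; sums 1839 and 1699 against 1634 and 1504), while Ms4a1, Cd8a and Cd4 had no kept probe. Stellate cell markers had 4 of 6 higher (median 0.073), bile duct markers 2 of 3 (0.34) and red cell markers 2 of 2 (0.20). Of the 7 hepatocyte markers, 4 were saturated on every array. Among the 3 others Cps1, the first enzyme of the urea cycle, was at 13.21 and 13.21 with thiamine and at 12.77 and 12.58 without (0.53 ± 0.18; limma, unadjusted p = 0.014, adjusted p = 0.54). Apoa1 was at -0.12 ± 0.18 and Fgb at -0.048 ± 0.18, both with overlapping groups. The part of these cells in the values of ribosomal protein and factor genes was not tested, and in whole liver fewer cells of a type and less RNA per cell cannot be told apart.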

How the data were processed

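Each array report was written by CodeLink Expression Analysis 5.0.0.31312, per the file headers, and holds the authors' spot mean, local background median and their difference as intensity on a linear scale, without normalization. The sources used here do not say how the deposited table of processed intensities was made. Background was corrected with normexp (offset 50) over 35129 features, 1280 control features were dropped and log2 values of 33849 gene probes were quantile normalized. Masked spots were missing, and saturated or contaminated spots stayed. The 18664 probes without a near-background or masked flag on both arrays of at least 1 group were kept. Arrays had between 18176 and 20071 gene probes above background. The number of arrays limits the precision.

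The comparison used limma 3.58.1 (R 4.3.3), two-sided, with Benjamini-Hochberg adjustment across the kept probes (2 residual degrees of freedom, 10.8 after moderation). Lists were read from this fit by counts and medians. The step was tested on simulated data. Members and lists were chosen with earlier results of these data known. The rule for named genes took, per class, the 5 smallest unadjusted p in each direction and the 2 brightest and 2 dimmest genes, then the stalk proteins, Rpsa, Rps6, elongation factors, eIF2, eIF4F, 4E-binding proteins and eIF2 kinases, and the 3 smallest p per other list. Genes named only for lacking overlap, for probes of both signs or for missing the flag limit were named after their values were seen. Members carry the symbol of the platform's annotation, and other genes were brought to the current RefSeq symbol by gene ID. Probes joined to several genes (165) were unnamed. Rats were housed 2 per cage, and which shared one is not given. The p-values rest on the spread between these animals together with the variance of the whole array, from which limma borrows.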

Additional observations from a re-analysis of the deposited data

How the results depend on the processing

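No member passed the test under any of the 15 other fits. Over all kept probes limma called 0 in the chosen fit, 1 with the deposited table, 33 with all flagged spots missing and between 1 and 67 with 1 rat left out. A fit with the replicate number as a block called 126 of all probes and 0 members. The labels do not say that a number pairs rats, and the deviations of same-numbered rats correlated at -0.074. With 1 rat in a group, its spread was taken from the other group. With each rat left out in turn the class and list medians ran -0.050 to 0.036 for all members, -0.13 to -0.034 for large subunit, -0.11 to 0.12 for small subunit, 0.048 to 0.076 for initiation factors, 0.015 to 0.11 for elongation factors, -0.17 to 0.081 for regulators, -0.13 to -0.017 for ribosomal proteins, 0.048 to 0.070 for both factor classes, 0.0043 to 0.23 for TOP genes, -0.029 to 0.054 for release factors, -0.13 to 0.11 for ribosome biogenesis, -0.19 to -0.047 for tRNA synthetases, -0.097 to 0.021 for mTORC1 genes. Without any scaling the median of all kept probes rose to 0.19, and the medians were 0.17 for all members, 0.13 for large subunit, 0.12 for small subunit, 0.27 for initiation factors, 0.29 for elongation factors, 0.080 for regulators, 0.13 for ribosomal proteins, 0.27 for both factor classes, 0.29 for TOP genes, 0.26 for release factors, 0.18 for ribosome biogenesis, 0.037 for tRNA synthetases, 0.16 for mTORC1 genes. Relative to that shift the ribosomal proteins stayed below and the factors above it. The median of the elongation factors was 0.13 with median scaling and 0.11 with the deposited table. The other medians stayed within the spread between rats under the other settings, and the cause of the changes was not tested. Contaminated spots alone set to missing, added after the data were seen, left the class medians within that spread. Of 69 named genes, some changed sign when 1 rat was left out, with these lowest and highest values: Rpl37l1 -0.058 to 0.80, Rpl36al1 -0.12 to 0.59, Rpl10 -0.050 to 0.25, Rpl4 -0.23 to 0.44, Rpl11 -0.28 to 0.49, Rps27 -0.16 to 0.036, Rps18 -0.070 to 0.57, Rps23 -0.11 to 0.52, Rps26 -0.031 to 0.27, Rps20 -0.16 to 0.29, Rps6 -0.26 to 0.38, Rpsa -0.073 to 0.029, Eif4e2 -0.53 to 0.046, Eif4h -0.31 to 0.076, Eif2s3 -0.078 to 0.30, Eif4e -0.088 to 0.12, Eif4g1 -0.22 to 0.0048, Eif4e3 -0.25 to 0.051, Eef1b2 -0.037 to 0.33, Eef1d -0.18 to 0.15, Eef1g -0.11 to 0.55, Eif2ak3 -0.29 to 0.069, Eif2ak4 -0.45 to 0.21, Eef1akmt2 -0.16 to 0.10. Without scaling these changed sign: Rpl23 0.023, Rplp1 0.014, Rps27 0.066, Rpsa 0.14, Eif1ax 0.014, Eif3d 0.062, Eif4h 0.046, Eif4g1 0.026, Eif4e3 0.062, Eef1d 0.11, Eef1e1 0.056, Eif4ebp1 0.043, Eif2ak3 0.076, Eif2ak4 0.080, Eef1akmt2 0.17, Rack1 0.041. With flagged spots missing Rpl37l1 was at -0.058 and Rpl36al1 at -0.12, and with median scaling Eef1akmt2 was at 0.0028. No scan date is in the file headers and each slide holds 1 array, so a batch term was not run.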
